A study of Mus musculus with 8 samples.

Results

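GATA factors are transcription factors that bind DNA through a pair of zinc fingers and are named after the short sequence they recognise. Gata4, Gata5 and Gata6 are best known in heart-forming mesoderm and in endoderm, where Gata4 and Gata6 act together. Gata2 and Gata3 are best known in blood progenitors, trophoblast and surface ectoderm. Members were the genes Gata2 to Gata6, taken as every probe set whose platform annotation carried exactly that symbol. This matched 4 of the 5 genes with 7 probe sets, out of 17097 named genes, and Gata5 was not analysed here.

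The arrays measured amplified RNA of mouse cells sorted from whole gastrulating embryos carrying Mesp1-rtTA and Teto-H2B-GFP. In this reporter the Mesp1 promoter drives a transactivator that acts on the Teto sequence ahead of a nuclear green fluorescent protein. When the system was induced is not described here. The fractions therefore report activity of that system and need not match Mesp1 RNA cell by cell. Each array held 50 live cells, GFP+ or GFP-, at embryonic day (E) 6.5 or 7.5. All 4 groups came from embryos of this genotype and had 2 arrays each, named biological replicates 1 and 2. Whether embryos were pooled, or whether the fractions of a replicate number shared embryos, is not stated in the labels, so a p measures only the spread between these arrays.

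Mesp1, a transcription factor of the earliest mesoderm, served as the check of the sort: it was at 9.75 and 10.03 in GFP+ and 5.64 and 6.26 in GFP- cells at E6.5 (log2). Its difference was 3.94 (SE 0.33, limma adjusted p = 0.0209), which passed. At E7.5 it was at 8.75 and 8.65 in GFP+ and 7.76 and 8.06 in GFP- cells. The fractions then differed by 0.79 (SE 0.33, limma adjusted p over 11706 genes = 0.999983), which did not pass. In GFP- cells Mesp1 was at 1.96 between stages (SE 0.33, limma adjusted p = 0.121), and its interaction of fraction and stage did not pass (-3.15, SE 0.46, limma adjusted p = 0.738). The check therefore holds for E6.5 and is weak for E7.5. Array medians were 4.2 to 4.23 for replicate 1 and 4.54 to 4.59 for replicate 2, so for the members the differences within each replicate number are given beside the fitted ones. All levels are log2 RMA values, and n is 2 arrays per group throughout. Unless another setting is named, each adjusted p is limma's, by Benjamini and Hochberg's method across the 11706 genes tested. The median of all values, 4.38, served as the filter value, below which a level is uncertain. For the other probe set of a gene, the adjusted p is across the 18584 named probe sets with at least 2 arrays above this value.

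**Figure D1:**
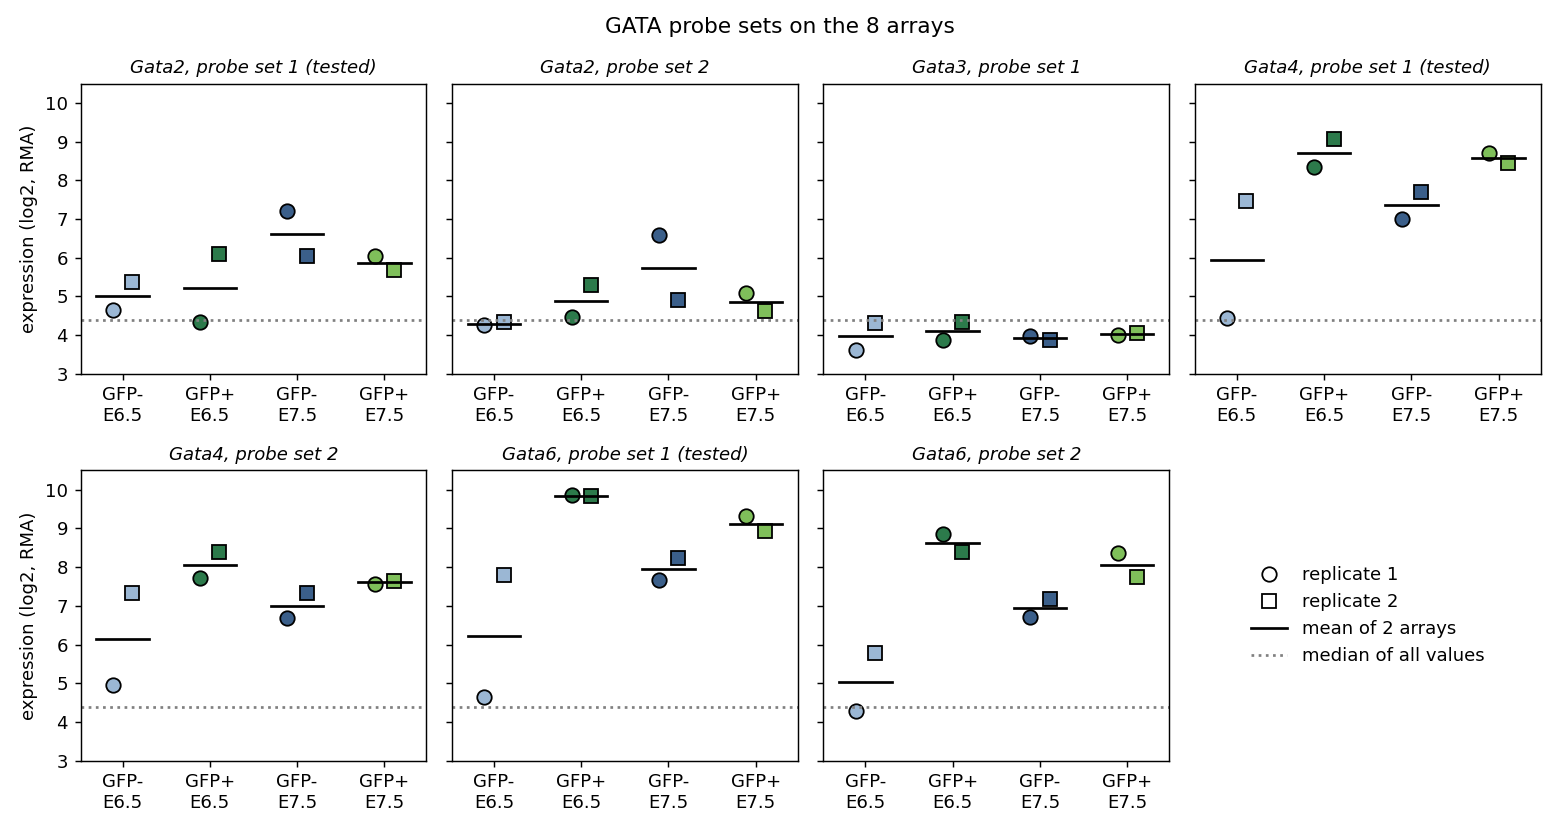
Expression (log2, RMA) of the 7 GATA probe sets on the 8 arrays; circles are replicate 1, squares replicate 2, bars the mean of 2 arrays, and the dotted line the median of all values (4.38). Gata4 and Gata6 are higher in both GFP+ arrays than in both GFP- arrays at each stage, and Gata3 stays at or below 4.33.

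Gata6, which acts with Gata4 in early endoderm and cardiac mesoderm, had its highest mean in GFP+ E6.5 cells. On the tested probe set (1425463_PM_at) it was at 9.86 and 9.83 in replicates 1 and 2 of GFP+ E6.5 cells, and at 4.64 and 7.80 in those of GFP- E6.5 cells. At E7.5 it was at 9.32 and 8.93 in GFP+ and at 7.68 and 8.24 in GFP- cells. The fractions did not overlap at either stage, and GFP- E6.5 replicate 1 lay far below the other 7 arrays. The order of the group means was GFP+ E6.5 (9.85 ± 0.03, mean ± SD), GFP+ E7.5 (9.12 ± 0.28), GFP- E7.5 (7.96 ± 0.40) and GFP- E6.5 (6.22 ± 2.23). Of these neighbours, the last pair overlapped.

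The E6.5 comparison asked whether GATA genes already differed between fractions at the earlier stage. Gata6 was 3.63 higher in GFP+ cells (SE 0.89, 95% interval 1.54 to 5.72, 12.4-fold), with 5.23 and 2.03 within replicates 1 and 2. By size this was the difference ranked 10 among 11706 genes, but it did not pass (limma adjusted p = 0.332). Leaving out replicate 1 of the GFP- E6.5 arrays gave 2.05 (limma adjusted p = 0.383), and leaving out replicate 2 gave 5.21 (limma adjusted p = 0.0587). In bulk samples of this kind, fewer cells that express a gene and less RNA per cell cannot be told apart.

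The other Gata6 probe set (1425464_PM_at) gave the same picture with a smaller spread in GFP- E6.5 cells. It was at 8.85 and 8.39 in GFP+ and at 4.27 and 5.77 in GFP- cells at E6.5. Tested among the 18584 named probe sets past the filter, its difference was 3.59 (SE 0.53, limma adjusted p = 0.126). The array at 4.27, GFP- replicate 1, lay below the filter value, so this size is uncertain. At E7.5 this probe set was at 8.35 and 7.74 in GFP+ and 6.71 and 7.18 in GFP- cells. Over the 8 arrays both Gata6 probe sets correlated at r = 0.962, a description of arrays that share replicate numbers.

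Gata4, a partner of Nkx2-5 and Tbx5 in heart cells and a regulator of extraembryonic endoderm, was high in both GFP+ groups. On the tested probe set (1418863_PM_at) it was at 8.34 and 9.08 in GFP+ and at 4.45 and 7.46 in GFP- cells at E6.5. At E7.5 it was at 8.69 and 8.45 in GFP+ and at 7.01 and 7.71 in GFP- cells. As for Gata6, the fractions did not overlap at either stage and GFP- E6.5 replicate 1 was the lowest array, next to the filter value. The means ran from GFP+ E6.5 (8.71 ± 0.52) and GFP+ E7.5 (8.57 ± 0.17) to GFP- E7.5 (7.36 ± 0.49) and GFP- E6.5 (5.95 ± 2.13). The GFP+ pair overlapped, and so did the GFP- pair.

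At E6.5 Gata4 was 2.76 higher in GFP+ cells (SE 0.88, 95% interval 0.69 to 4.82, 6.77-fold), with 3.90 and 1.62 within the replicates. It did not pass (limma adjusted p = 0.554). Leaving out replicate 1 of the GFP- E6.5 arrays gave 1.25 (limma adjusted p = 0.969), and leaving out replicate 2 gave 4.26 (limma adjusted p = 0.0825). The other Gata4 probe set (1418864_PM_at) was at 7.73 and 8.38 in GFP+ and 4.94 and 7.32 in GFP- cells. Its difference at E6.5 was 1.92 (SE 0.72, limma adjusted p = 0.767), smaller than on the tested probe set.

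Of the 3 members tested, limma passed 0 at E6.5, where 9 of 11706 genes passed (0.0769%; 30 or 0.256% with the replicate number as a block). At an unadjusted p under 0.05 Gata4 and Gata6 lay below it, against 671 genes in all (5.73%). These 2 members were also those whose groups did not overlap, with GFP+ higher, as was so for 14.8% of all genes. The third, Gata2, was 0.20 higher in GFP+ cells (SE 0.65, 95% interval -1.33 to 1.72), with -0.31 and 0.71 within the replicates. The other Gata2 probe set gave 0.59 (SE 0.58; 0.23 and 0.96 within the replicates, limma adjusted p = 0.999946), with groups that did not overlap.

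At E7.5 the same comparison asked how far the fractions still differed a day later. Gata4 was 1.21 higher in GFP+ cells (SE 0.88, 95% interval -0.85 to 3.28, 1.68 and 0.75 within the replicates). Gata6 was 1.16 higher (SE 0.89, 95% interval -0.93 to 3.25, 1.64 and 0.69 within the replicates). The second Gata4 probe set was at 7.57 and 7.65 in GFP+ and 6.68 and 7.33 in GFP- cells, a difference of 0.60. The second Gata6 probe set gave 1.10. On all 4 probe sets of these genes the value in GFP+ cells was the higher within each replicate number, as for 24.8% of all genes.

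None of the 3 tested members passed at E7.5, and neither did any other gene in limma (0 of 11706, 0%), with or without the replicate block. At an unadjusted p under 0.05 there were 0 members and 282 genes (2.41%). The groups of 2 of the 3 members, Gata4 and Gata6, did not overlap with GFP+ higher, as for 10.3% of all genes.

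**Figure D2:**
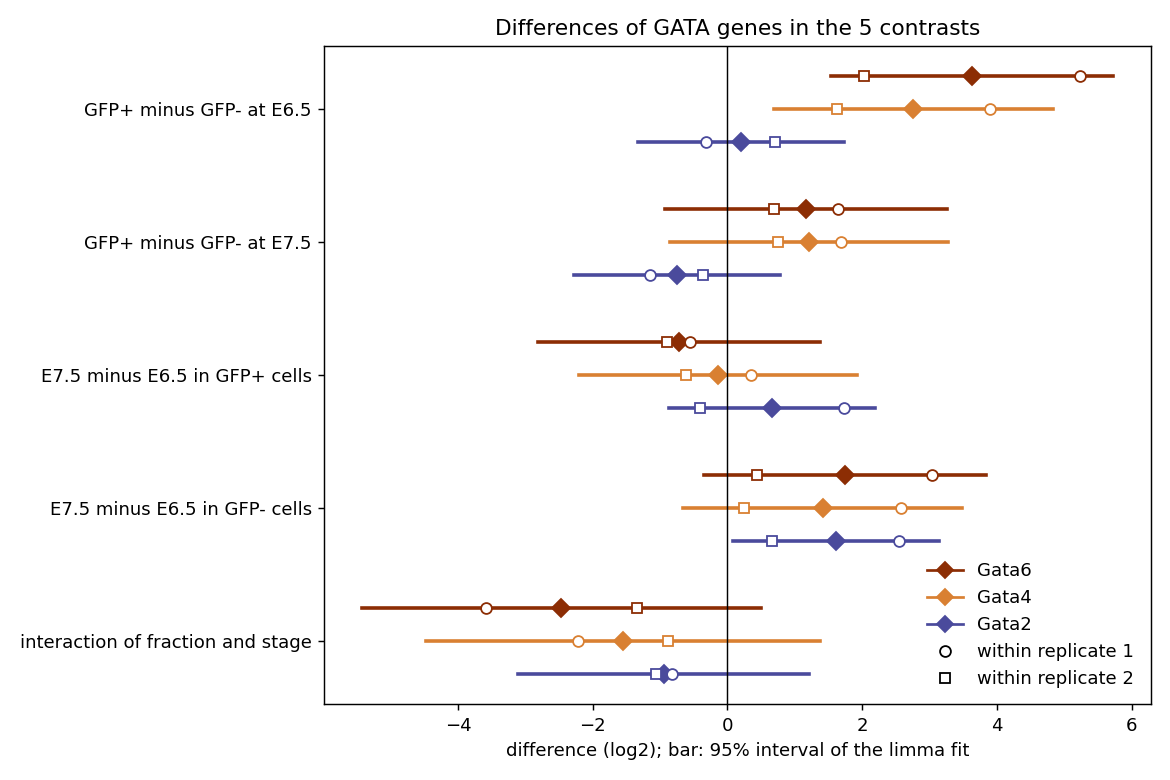
Differences (log2) of Gata6, Gata4 and Gata2 in the 5 contrasts; diamonds are the fitted value, bars its 95% interval, and open circles and squares the value within replicates 1 and 2. At E6.5 the intervals of Gata6 (1.54 to 5.72) and Gata4 (0.69 to 4.82) lie above 0, and at E7.5 all intervals include 0.

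From E6.5 to E7.5, the means of Gata4 and Gata6 were lower in GFP+ cells and higher in GFP- cells, and none of these differences passed. In GFP+ cells the stage difference of Gata6 was -0.73 (SE 0.89), made of -0.55 and -0.90 in replicates 1 and 2, and that of Gata4 was -0.14 (SE 0.88), made of 0.35 and -0.62. Both E7.5 arrays of Gata6 lay below both E6.5 arrays, as for 15.2% of all genes, on each of its probe sets. In GFP- cells it was 1.74 for Gata6 (SE 0.89; 3.04 and 0.44) and 1.41 for Gata4 (SE 0.88; 2.57 and 0.25). Leaving out replicate 1 of the GFP- E6.5 arrays gave 0.16 for Gata6 and -0.095 for Gata4, and leaving out replicate 2 gave 3.32 and 2.92.

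The second Gata6 probe set was at 1.92 in GFP- cells (SE 0.53, 2.43 and 1.41 within the replicates, limma adjusted p = 0.435). Its GFP- E6.5 replicate 1 array lay below the filter value, so the size is uncertain. On this probe set, both E7.5 arrays lay above both E6.5 arrays. That was not so on the tested probe set (7.68 at E7.5 against 7.80 at E6.5). The interaction of fraction and stage is the fraction difference at E7.5 minus that at E6.5. It was -2.47 for Gata6 (SE 1.26, -3.59 and -1.34 within the replicates) and -1.55 for Gata4 (SE 1.24, -2.22 and -0.87). Neither passed, and no gene did in limma (0 of 11706, 0%, also with the replicate block). Under an unadjusted limma p of 0.05 were 317 genes (2.71%) and 0 members on their tested probe sets. On the other Gata6 probe set the interaction was -2.49 (SE 0.75, -2.93 and -2.05 within the replicates). It lay below that unadjusted limma p but did not pass among the 18584 named probe sets. With GFP- E6.5 replicate 1 below the filter value, this size is uncertain.

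Gata2, a regulator of blood stem and progenitor cells that is also active in trophoblast, had its highest mean in GFP- E7.5 cells. On the tested probe set (1428816_PM_a_at) it was at 4.33 and 6.09 in GFP+ and 4.65 and 5.38 in GFP- cells at E6.5. Among E7.5 arrays it was at 6.05 and 5.68 in GFP+ and at 7.20 and 6.04 in GFP- cells. The highest array was GFP- E7.5 replicate 1, and the lowest, GFP+ E6.5 replicate 1, lay below the filter value. The means were 6.62 ± 0.82 in GFP- E7.5, 5.87 ± 0.26 in GFP+ E7.5, 5.21 ± 1.24 in GFP+ E6.5 and 5.01 ± 0.52 in GFP- E6.5, and each neighbouring pair in this order overlapped.

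In GFP- cells Gata2 was 1.61 higher at E7.5 than at E6.5 (SE 0.65, 95% interval 0.08 to 3.13), with 2.55 and 0.66 within the replicates. Both E7.5 arrays lay above both E6.5 arrays, as for 13.1% of all genes, but the difference did not pass (limma adjusted p = 0.724). In this contrast 11 of 11706 genes passed (0.0940%; 39 or 0.333% with the replicate block) and 759 had an unadjusted p under 0.05 (6.48%). Of the 3 tested members limma passed 0. The other probe sets of Gata6 (1.92, SE 0.53) and Gata2 lay below that unadjusted limma p without passing. Among the tested probe sets, that of Gata2 alone lay below it. Without GFP- E7.5 replicate 1 the difference was 1.03, and with the replicate block its unadjusted p was 0.0588.

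The other Gata2 probe set (1450333_PM_a_at) was at 4.26 and 4.33 in GFP- E6.5 cells, below the filter value, and at 6.60 and 4.90 in GFP- E7.5 cells. Its difference was 1.45 (SE 0.58, limma adjusted p = 0.759), close to that of the tested probe set. In GFP+ cells it was at 4.48 and 5.29 at E6.5 and at 5.08 and 4.61 at E7.5. The Gata2 probe sets disagreed in sign on the stage difference in GFP+ cells (0.66 on the tested, -0.039 on the other). Of the 3 tested members limma passed 0 in GFP+ cells between stages, where 3 genes did (0.0256%), and 0 lay below an unadjusted p of 0.05, where 451 genes did (3.85%).

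Between fractions at E7.5 Gata2 was at -0.75, lower in GFP+ than in GFP- cells (SE 0.65, 95% interval -2.28 to 0.78, -1.14 and -0.36 within the replicates). The groups overlapped by a narrow margin, with GFP+ replicate 1 at 6.05 and GFP- replicate 2 at 6.04. Without GFP- E7.5 replicate 1 the value was -0.17. Its interaction was -0.95 (SE 0.92, limma adjusted p = 0.999941), with -0.83 and -1.07 within the replicates.

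Gata3, which acts in trophoblast, surface ectoderm and later in T cells, was not above the filter value on any array and was left out of the main test. Its single probe set (1448886_PM_at) was at 3.88 and 4.33 in GFP+ and at 3.63 and 4.31 in GFP- cells at E6.5. At E7.5 it was at 4.0 and 4.05 in GFP+ and at 3.97 and 3.88 in GFP- cells. The 8 values spanned 0.70, and the largest difference of the 4 between groups was 0.14 (SE 0.31, 95% interval -0.59 to 0.86, no filter), at E6.5. At E6.5 the replicate numbers lay further apart than the fractions did. A level this low gives no size of change.

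By likeness, Gata4 and Gata6 were each other's closest gene. The measure was Pearson's r over the 8 arrays after the mean of each replicate number was subtracted, against 1887 other genes with a range of at least 2. For Gata4 and Gata6 r was 0.987 (0.979 without the subtraction). Next to Gata4 came Hspa13 (r = 0.979), which encodes a heat shock protein family member, and Pdlim5 (0.972), which encodes a scaffold protein of the cytoskeleton. Next to Gata6 came Polb (0.982), which encodes a DNA repair polymerase, and Lhx1 (0.978), a homeobox gene of the early mesoderm and anterior visceral endoderm. For Gata4, Gata6 and all of these genes GFP- E6.5 replicate 1 was the lowest array (Hspa13 4.49, Pdlim5 4.89, Polb 4.32). How far these r rest on that array was not tested.

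Lhx1 was at 9.63 and 10.26 in GFP+ and at 4.43 and 8.78 in GFP- cells at E6.5, with the same low array, GFP- replicate 1, as Gata4 and Gata6. A day later it was at 9.24 and 8.88 in GFP+ and at 7.33 and 8.10 in GFP- cells. Closest to Gata2 were Hoxd9 (r = 0.982), a homeobox gene, Cmtm7 (0.967) and Dynlt3 (0.952), which encodes a dynein light chain. Without the subtraction r was 0.632 for Hoxd9, 0.877 for Cmtm7 and 0.744 for Dynlt3. Hoxd9 was at 7.93 in GFP- E7.5 replicate 1 but at 4.73 in replicate 2. Gata2 itself had r = 0.232 with Gata4 and 0.143 with Gata6.

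Among other genes with GATA zinc fingers, 0 of 6 tested passed in any of the 5 contrasts. Only 1, Gata1 in GFP- cells between stages, had an unadjusted limma p under 0.05, as did 6.48% of all genes in that contrast. Gata1, the master regulator of red cells, was at 7.16 in GFP- E7.5 replicate 1, the array that was also highest for Gata2, and at 4.80 in replicate 2. On the other arrays it was at 3.71 to 4.79. In GFP- cells Gata1 was 1.66 higher at E7.5 (SE 0.70, 3.15 and 0.16 within the replicates, limma adjusted p = 0.764), an uncertain size since its E6.5 mean lay below the filter value. Trps1, a GATA-type repressor, was 1.10 higher in GFP+ cells at E7.5 (SE 0.63), with a GFP- mean below the filter value, and Gatad1 was 0.29 higher at E6.5 (SE 0.32).

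GATA cofactors bind these factors or join them in complexes, and 0 of 10 tested passed in any contrast. Lmo2, the adaptor that joins GATA factors to Tal1 in blood progenitors, was 2.47 higher at E7.5 than at E6.5 in GFP- cells (SE 0.63, 3.45 and 1.49 within the replicates, limma adjusted p = 0.361). Its E6.5 mean, 3.85, lay below the filter value, so the size is uncertain. It was the only cofactor of the 10 tested with an unadjusted limma p under 0.05 in that contrast, as had 6.48% of all genes. At E7.5 Lmo2 was at -1.36 between fractions, higher in GFP- cells (SE 0.63). Zfpm1, which encodes the cofactor FOG1, was 0.38 higher in GFP+ cells at E7.5 (SE 0.54). The cofactor medians were -0.11 between fractions at E6.5 and 0.13 between stages in GFP- cells, beside -0.01 or 0.01 for all genes.

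Of the cardiac transcription partners 0 of 10 passed in any contrast, and their median between fractions was 0.10 at E6.5 and -0.31 at E7.5. Within replicates 1 and 2 it was -0.042 and 0.28 at E6.5, and 0.078 and -0.54 at E7.5, so its sign differed between the replicate numbers. In GFP- cells 3 of the 10 had an unadjusted limma p under 0.05 between stages, where 6.48% of all genes did. Among these were Hand1 (4.27, SE 0.88, limma adjusted p = 0.208), a basic helix-loop-helix factor of heart and extraembryonic mesoderm, and Tbx20 (2.39, SE 0.54, limma adjusted p = 0.273), a T-box factor of the heart. In GFP+ cells the stage difference of Hand1 was 1.84 (SE 0.88), with replicate values of 4.07 and -0.39. At E6.5 Hand1 was 1.69 higher in GFP+ cells (SE 0.88), and Srf, a transcription factor of muscle gene promoters, 0.77 higher (SE 0.53).

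Cardiac target genes are contractile and hormone genes whose promoters are known to respond to GATA factors. Between fractions at E6.5, 0 of 7 passed and 0 had an unadjusted limma p under 0.05, with a median of 0.13. At E7.5 the median was 0.39, with 0.94 within replicate 1 and -0.13 within replicate 2. Tnnc1, which encodes cardiac troponin C, had the largest difference of all 11706 genes (3.35, SE 0.54, limma adjusted p = 0.999983), with its GFP- mean below the filter value. In GFP+ cells between stages their median was 2.46 beside -0.03 for all genes, again with 0 of 7 passed. In that contrast 4 of the 7 had an unadjusted limma p under 0.05, as did 3.85% of all genes. Tnni1, a troponin I gene, was at 3.74 (SE 0.79, limma adjusted p = 0.430), Tnnc1 at 3.54 (SE 0.54, limma adjusted p = 0.213) and Actc1, cardiac actin, at 3.10 (SE 0.72, limma adjusted p = 0.509). The E6.5 means of Tnnc1 and Actc1 lay below the filter value, so these sizes are uncertain. In GFP- cells between stages the list median was 0.44, with 0 of 7 passed. There 3 of the 7 had an unadjusted limma p under 0.05, as did 6.48% of all genes. These were Myl7 at 2.44 (SE 0.80), Tnni1 at 2.18 (SE 0.79) and Actc1 at 1.85 (SE 0.72), the last with an E6.5 mean below the filter value. Between stages Gata4 and Gata6 were at -0.14 and -0.73 in GFP+ cells, and at 1.41 and 1.74 in GFP- cells.

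The BMP pathway, a signal known to act upstream of GATA genes in mesoderm, had 0 of 17 genes passed in any contrast. At E6.5, 4 genes higher and 2 lower in GFP+ cells had an unadjusted limma p under 0.05, as did 5.73% of all genes. Bmp7, a ligand, was 2.83 higher (SE 0.45, limma adjusted p = 0.125) and Smad1, which carries the signal to the nucleus, 2.41 higher (SE 0.53, limma adjusted p = 0.255). Bmp4, another ligand, was at -2.03, lower in GFP+ cells (SE 0.59, limma adjusted p = 0.470). The means of Bmp7 in GFP- cells and of Bmp4 in GFP+ cells lay below the filter value, so both sizes are uncertain. In GFP- cells between stages Bmp7 was at 3.71 (SE 0.45, limma adjusted p = 0.0606), Bmp5 at 2.91 (SE 0.50) and Bmp4 at 1.97 (SE 0.59). The GFP- E6.5 means of Bmp7 and Bmp5 lay below the filter value, so the first 2 sizes are uncertain. At E7.5, 3 genes lower in GFP+ cells and 0 higher had an unadjusted limma p under 0.05, as did 2.41% of all genes. These were Id2 at -2.25 (SE 0.41), Bmp5 at -1.67 (SE 0.50) and Id1 at -1.22 (SE 0.51). In GFP+ cells between stages 1 gene higher and 2 lower were under it, as were 3.85% of all genes. Bmp4 was at 3.75 (SE 0.59), with its E6.5 mean below the filter value, Id1 at -1.48 and Smad1 at -1.30.

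**Figure D3:**
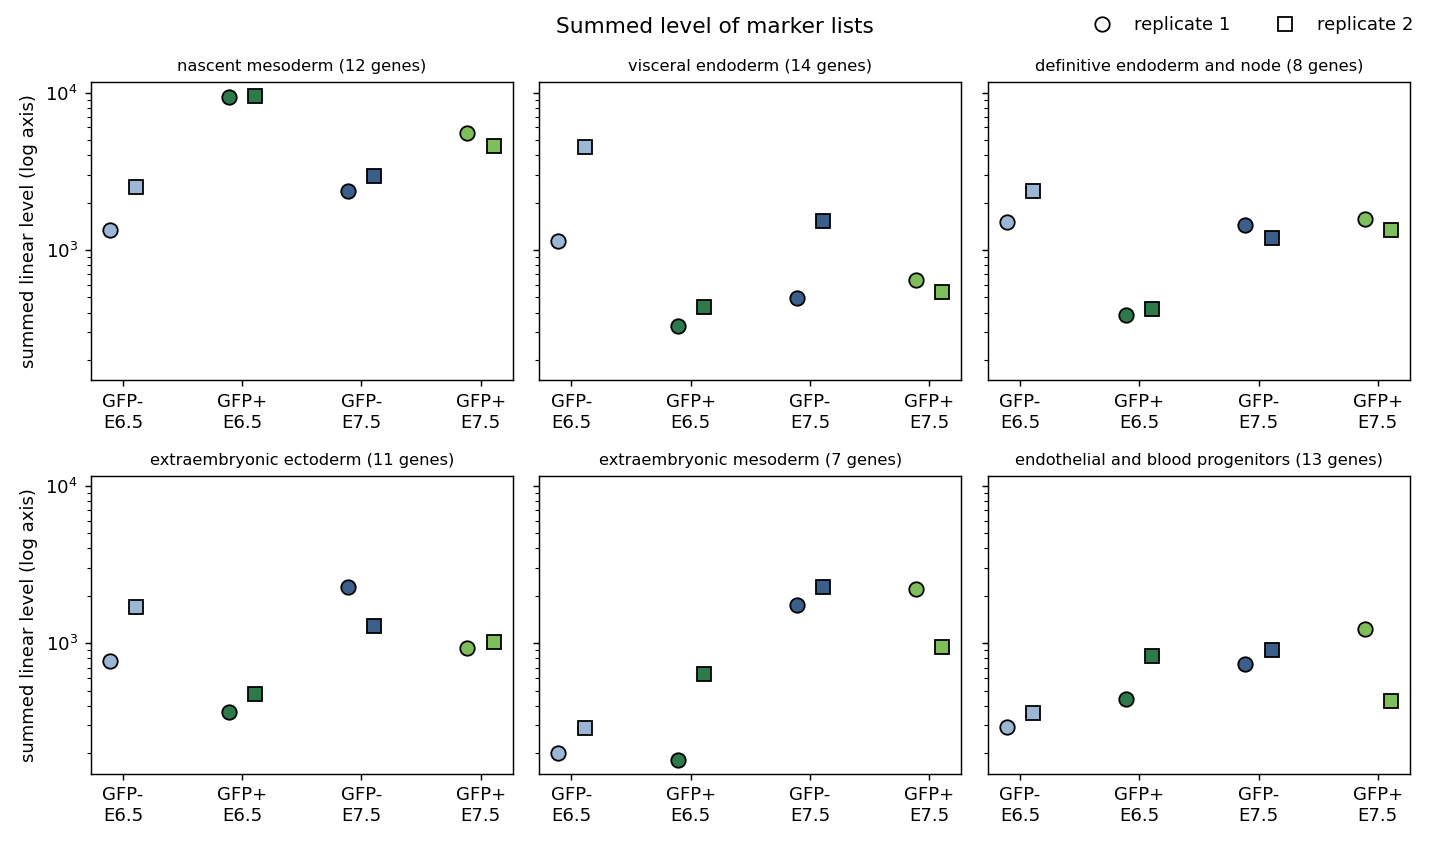
Summed linear level (2 to the power of the log2 value, log axis) of 6 marker lists on the 8 arrays, by group; circles are replicate 1 and squares replicate 2. In GFP- E6.5 cells the visceral endoderm sum is 1141 in replicate 1 and 4478 in replicate 2, the replicate pair between which Gata4 and Gata6 differ most. All 6 sums are higher in replicate 2 of that pair.

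The levels of several marker lists differed between the same arrays as those of the GATA genes, and their part in the results was not tested. Nascent mesoderm genes were higher in GFP+ cells at E6.5 by a median of 2.60, with 2 of 12 passed (Mesp1, and Snai1 at 3.13, SE 0.34, limma adjusted p = 0.0495) and 11 with an unadjusted limma p under 0.05 (5.73% of all genes). Mesp1, whose promoter drives the reporter, was the check of the sort, so its pass is no separate result of the list. The counts, the median and the sums of the list include it. The summed linear level of the list was 9372 and 9525 in GFP+ E6.5 and 1344 and 2526 in GFP- E6.5 arrays. For E7.5 the sum was 5500 and 4580 in GFP+ and 2368 and 2958 in GFP- arrays. The groups lay in the same order as for Gata6, and in GFP- cells of both stages replicate 2 was the higher array for the list, Gata4 and Gata6. Replicate 2 arrays also had the higher medians (4.54 to 4.59 against 4.2 to 4.23), and the part of this offset was not tested.

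Visceral endoderm, where Gata4 and Gata6 are also known to be active, ran the other way between fractions at E6.5. Its list had a median of -2.11 at E6.5, with 0 of 12 passed, and 7 lower in GFP+ cells at an unadjusted limma p under 0.05 (5.73% of all genes in either direction). Its summed level was 328 and 432 in GFP+ E6.5 and 1141 and 4478 in GFP- E6.5 arrays, in replicates 1 and 2. At E7.5 it was 646 and 540 in GFP+ and 494 and 1519 in GFP- arrays. This sum ran the same way as Gata4 and Gata6 in replicate 1 and the other way in replicate 2. Spink1, a secreted protease inhibitor of this tissue, was at 8.16 and 10.46 in GFP- E6.5 replicates 1 and 2, and Apoa1, an apolipoprotein gene, at 7.42 and 9.02. At E7.5 Spink1 was at 7.39 and 3.49 in GFP+ and at 3.64 and 9.41 in GFP- arrays. The direction of the E7.5 sum in replicate 1 rests on this gene. The list median at E7.5 was 0.13 within replicate 1 and -0.81 within replicate 2. Foxa1 lay below the filter value on all 8 arrays. Gata4 and Gata6 were thus high in GFP+ E6.5 arrays with low visceral endoderm sums, and within GFP- E6.5 cells higher in the array with the higher sum. This was not particular to visceral endoderm. Of the other marker lists, the epiblast and erythroid sums were lower in that array. The rest were higher, among them nascent mesoderm (2526 against 1344).

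Basement membrane genes of the primitive endoderm lineage had 0 of 7 passed and a median of -0.12 at E6.5. Between stages Lama1, a laminin chain gene, was at 2.92 in GFP+ (SE 0.55) and 2.31 in GFP- cells (SE 0.55), with limma adjusted p = 0.329 and 0.311. Definitive endoderm and node genes had 0 of 8 passed and a median of -0.78 at E6.5, with a summed level of 386 and 418 in GFP+ and 1513 and 2355 in GFP- arrays. Trh was the highest gene of the list on both GFP- arrays, at 10.32 and 9.86. The GFP- sum thus rests largely on Trh in replicate 1, and on Trh and Cer1 (9.78) in replicate 2. Between fractions Trh was at -3.33 (SE 0.61, -3.63 and -3.03 within the replicates, limma adjusted p = 0.182). Cer1, a secreted inhibitor of Nodal and BMP signals, was at -3.36 between fractions (SE 1.20, -0.94 and -5.79 within the replicates), with its GFP+ mean below the filter value, so the size is uncertain.

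Beside Gata2, the extraembryonic ectoderm list had a summed level of 2277 in GFP- E7.5 replicate 1 and 1284 in replicate 2, and 365 to 1686 on the other arrays. Within the list the genes did not all run this way. Rhox5, a homeobox gene, was at 9.77 and 7.12 in replicates 1 and 2, and Esrrb at 7.36 and 3.02. Elf5 was at 6.60 and 3.45 and Tfap2c at 6.20 and 5.16, and Ets2 and Fgfr2 were also higher in replicate 1. The replicate 2 values of Esrrb and Elf5 lay below the filter value. Rhox6 was at 4.34 and 6.04 and Cdx2, a trophoblast homeobox gene, at 7.60 and 8.04, and Ascl2, Plac1 and Rhox9 were also higher in replicate 2. The genes given with values here were chosen after those values were seen. Endothelial and blood progenitor genes summed to 736 and 910 there, erythroid genes to 479 and 478, and extraembryonic mesoderm genes to 1737 and 2282. Of these lists the extraembryonic ectoderm list alone had a clearly higher sum in replicate 1, the array with the highest Gata2. That gap rests largely on Rhox5 (9.77 and 7.12), the highest gene of the list in replicate 1. Erg, Lyl1, Cdh5 and Tek of the endothelial list, and Hbb-y, Hba-x and Klf1 of the erythroid list, lay below the filter value on all arrays.

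In GFP- cells between stages these lists had 0 of 9 endothelial, 0 of 6 erythroid, 0 of 11 extraembryonic ectoderm and 0 of 5 extraembryonic mesoderm genes passed. Their medians were 0.81, 0.13, 0.41 and 2.38, beside -0.01 for all genes. Kdr, a VEGF receptor gene of blood and vessel progenitors, was at 3.30 (SE 0.80, limma adjusted p = 0.323) and Hbb-bh1, an embryonic globin gene, at 2.55 (SE 0.31, limma adjusted p = 0.0606). Hbb-bh1 lay below the filter value at E6.5, so its size is uncertain. Surface ectoderm and amnion genes, a setting of Gata3, had 0 of 7 passed and a median of 0.12. Tfap2a, an AP-2 factor of that tissue, was at -2.20 between fractions at E7.5, higher in GFP- cells (SE 0.60). The epiblast list, of cells before they form mesoderm, had 0 of 10 passed and a median of -1.06 between fractions at E6.5.

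**Figure D4:**
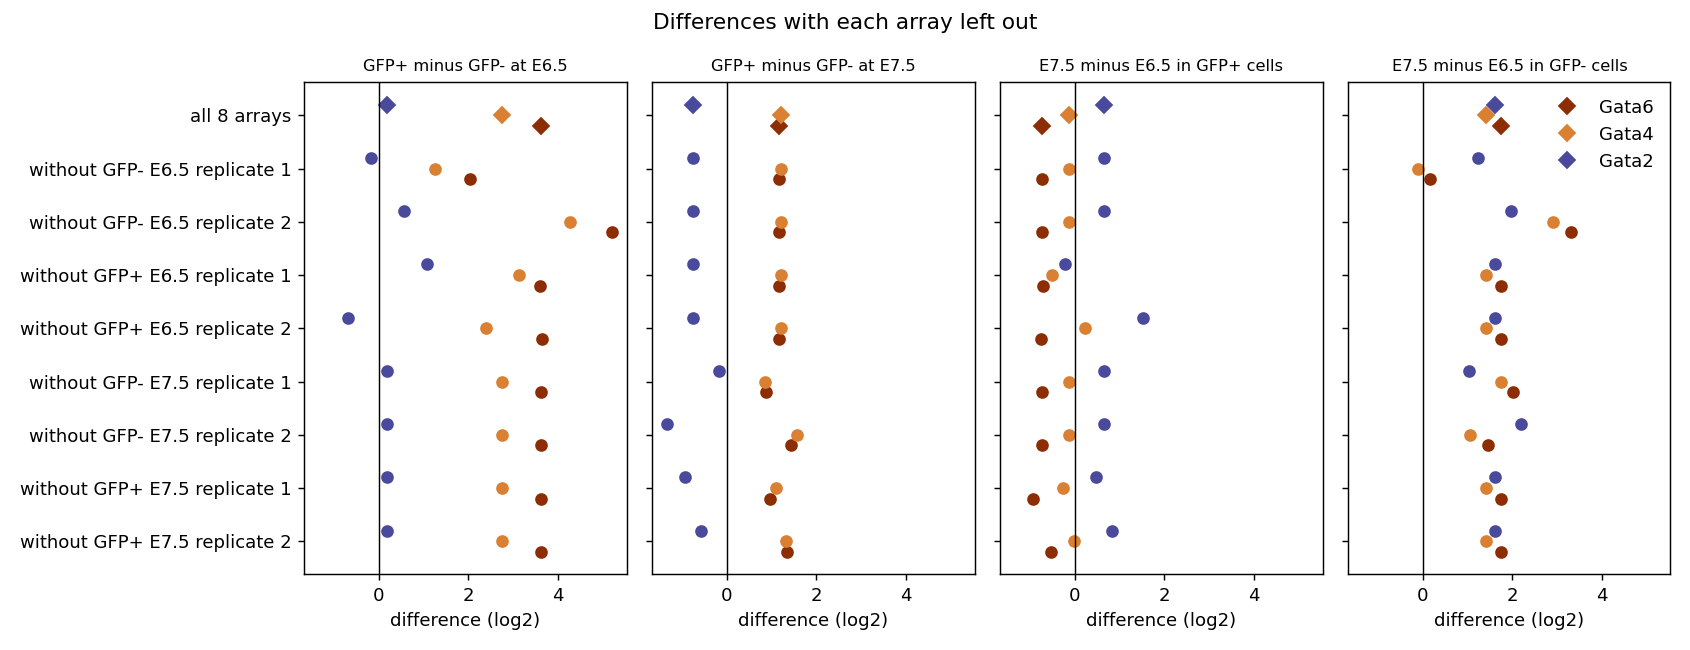
Differences (log2) of Gata6, Gata4 and Gata2 in 4 contrasts with all 8 arrays (diamonds) and with each array left out (dots). At E6.5 Gata6 stays above 0, from 2.05 to 5.21, and Gata4 from 1.25 to 4.26, whereas Gata2 runs from -0.68 to 1.07.

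The E6.5 differences of Gata4 and Gata6 depended in size on which GFP- array was kept, while leaving out a GFP+ E6.5 array moved them less. Gata6 was at 3.61 and 3.65, and Gata4 at 3.13 and 2.39, when replicate 1 or 2 of those GFP+ arrays was dropped. At E7.5 Gata6 ranged from 0.88 to 1.44 and Gata4 from 0.87 to 1.56 over the 8 arrays left out in turn. In GFP+ cells between stages Gata6 ranged from -0.92 to -0.53. Gata2 between fractions at E6.5 turned to -0.17 when GFP- E6.5 replicate 1 was dropped and to -0.68 when GFP+ E6.5 replicate 2 was dropped. In GFP+ cells between stages, dropping GFP+ E6.5 replicate 2 turned Gata4 to 0.23, and dropping GFP+ E6.5 replicate 1 turned Gata2 to -0.22.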

How the data were processed

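The deposited table holds log2 expression values, which the authors computed by RMA, as the submitters' processing notes record. Neither a version of RMA nor a build is given in the sources used here, and no coordinates were used. The table held 45141 probe sets, of which 28898 had 1 gene symbol, 551 several, 15588 none and 104 were controls. A probe set was kept where at least 2 of 8 arrays lay above the median of all values (4.38). Where several probe sets shared a symbol, that of highest mean was tested, which left 11706 genes.

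Differences were tested in R 4.3.3 by limma 3.58.1 (lmFit and eBayes), fitted to the 8 arrays with 4 group means and no block, with 4 residual degrees of freedom, a prior of 3.21, and a threshold of 0.05 on the adjusted p. The fit was tested on simulated data for the fraction contrast at E6.5. It recovered 38% of 100 genes changed by 2 (log2) and 79% of 100 changed by 4, and called 4 unchanged genes. True differences of such sizes can therefore fail to pass. Contrasts share arrays. As a check of pairing, arrays of equal replicate number deviated together (r = 0.401 to 0.532 over 6 pairs of groups). With only 2 numbers, the replicate block was kept as an alternative, beside no filter, the mean of all probe sets, every probe set on its own, quantile normalization, only the 4 arrays compared, and each array left out. Amplifying RNA of 50 cells can add spread that is not told apart here from that between embryos, and the number of arrays limits the precision.

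Named genes were all members, the 3 genes most like each tested member, and from each list those that passed or else up to 3 with the largest difference. Members and lists were chosen with earlier results of these data known.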

Additional observations from a re-analysis of the deposited data

Results flagged for a closer look

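Gata6 moved in opposite directions between stages in the 2 fractions, in both replicate numbers. It was at -0.73 in GFP+ cells (-0.55 and -0.90 within replicates 1 and 2) and at 1.74 in GFP- cells (3.04 and 0.44). The test of this difference, the interaction of fraction and stage, gave -2.47 (limma adjusted p = 0.999941) and did not pass. Of 11706 genes, 733 (6.26%) were lower at E7.5 in GFP+ and higher in GFP- cells within both replicate numbers. Without GFP- E6.5 replicate 1 the interaction was at -0.89, and without GFP- E6.5 replicate 2 at -4.04. Groups of 2 arrays are too small for the test of single outlying samples, so none was run.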

How the results depend on the processing

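No difference of Gata2, Gata4 or Gata6 passed under the alternatives run (lowest limma adjusted p = 0.0587), and 6 values turned sign. The block, the filter and arrays left out of other groups cannot move these differences, only their errors. The replicate block left their values as they were and changed no call (Gata6 at E6.5: 3.63, limma adjusted p = 0.211). Quantile normalization of all arrays together gave Gata6 at 3.53 and Gata4 at 2.67 there. The other Gata2 probe set turned the stage difference in GFP+ cells to -0.039. With each array left out, that difference ran from -0.22 to 1.54 and Gata2 between fractions at E6.5 from -0.68 to 1.07. Gata4 between stages ran from -0.095 to 2.92 in GFP- and from -0.50 to 0.23 in GFP+ cells.

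Genes past the threshold numbered 9 at E6.5, against 30 with the replicate block, 16 with quantile normalization, 4 with every probe set on its own, 0 with only the 4 arrays of the comparison (678 at an unadjusted limma p under 0.05) and 0 to 1 with an array left out. Between stages in GFP- cells there were 11, against 39 with the replicate block, 26 with quantile normalization, 17 with the mean of all probe sets, 4 with only the 4 arrays and 3 to 10 with an array left out. Between stages in GFP+ cells there were 3, against 0 with no filter (593 at an unadjusted limma p under 0.05), 0 with only the 4 arrays (494) and 0 to 3 with an array left out. The cause of these shifts was not tested.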
